A study of Mus musculus with 10 samples.

Results

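Genes of the unfolded protein response and of stress in the endoplasmic reticulum (ER) were followed in epididymal white adipose tissue, the fat pad beside the testis, of male mice fed a high-fat diet. The set holds 32 genes of 17097 that were measured. A probe set counted when the array annotation paired it with exactly 1 of the 32 symbols, and a gene with several was read from the brightest one, by its mean signal across the 10 arrays. All 32 genes were found, 14 of them with a single probe set and 18 with several. By role they are 14 ER chaperones and folding enzymes, 8 genes of ER-associated degradation and of protein entry into the ER, 5 stress sensors and transcription factors, and 5 genes of the arm that runs through the transcription factor Atf4. The groups were ASC-/- mice (n = 3), which lack the inflammasome adaptor ASC (gene Pycard), Casp1-/- mice (n = 3), which lack the protease caspase-1, and wild-type (WT) mice (n = 4). Every group had the C57/Bl6 background, was 8 to 12 weeks old at the start and received a diet with 45 energy% of fat for 16 weeks, so no lean tissue enters any comparison. The sources used here do not state how the null alleles were made or whether WT mice were littermates of the null mice. RNA of each mouse was hybridised to 1 Affymetrix HT_MG-430 PM array.

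Proteins meant for secretion or for membranes fold in the ER with the help of chaperones, and misfolded ones are sent back to the cytosol for destruction. When unfolded proteins accumulate, the sensor kinases Ern1 (IRE1) and Eif2ak3 (PERK) and the membrane-bound factor Atf6 signal to the nucleus, mainly raising chaperones through Xbp1 and Atf6, and amino acid and cell death genes through Atf4. Fat cells secrete adipokines and macrophages secrete cytokines and enzymes, and obesity is widely studied as a source of ER stress in this tissue.

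Signals are log2 values, so a difference of 1 is a 2-fold change. Control probe sets that should bind no mouse RNA had array medians of 2.91 to 3.15 and reached 5.005 at most. Pycard averaged 3.40 ± 0.27 in ASC-/- (SD, n = 3) and 9.82 ± 0.62 in WT (SD, n = 4), and Casp1 averaged 4.85 ± 0.14 in Casp1-/- (SD, n = 3) and 9.32 ± 0.55 in WT, as the labels require. The mean of 9 adipocyte markers lay between 10.34 and 11.61 on every array. Of 9 markers of pancreatic acinar cells, another ER-rich cell, 8 were below 5.005 on all arrays, and Cela1 was above it on all 10 (8.68 to 10.03). Of 8 epididymis epithelium markers, 6 were below 5.005 on all arrays, while Adam7 read 8.31 and 5.17 on Casp1-/- replicates 2 and 3 and 6.20 on WT replicate 2, and Defb1 read 5.62 on Casp1-/- replicate 2. The part of such tissue in the results was not tested, and they are given without each of these arrays further on. Spike-in RNAs of bacterial origin, which go through labelling with the sample, had means between 6.21 and 6.30 in ASC-/-, between 7.51 and 8.07 in Casp1-/-, of 7.80 on WT replicate 1 and between 5.76 and 6.50 on WT replicates 2 to 4. The labels give no batch, so the division of the arrays into a high and a low spike-in set rests on these controls alone. With this set as a block, the Casp1-/- contrast compares the Casp1-/- arrays with WT replicate 1, and the ASC-/- contrast compares the ASC-/- arrays with WT replicates 2 to 4. Of the 32 genes, 29 (90.6%) exceeded 5.005 on all 10 arrays, against 52.2% of all genes. The exceptions were Derl3 (3.76 to 4.34), Trib3 (4.94 to 5.33) and Pdia3 (4.97 to 5.37), whose changes could therefore be compressed.

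Many chaperone genes carry the ER stress response element (ERSE), a DNA motif with the ends CCAAT and CCACG around 9 bases of any kind, which is bound by NF-Y at its CCAAT end and by Atf6 or Xbp1 at its CCACG end. RefSeq promoter windows of the GRCm38.p6 build, reaching from 250 bases before to 50 bases after an annotated start, were matched for 28 of the 32 genes, and both strands were searched. The complete motif was found in 9 of these 28 (32.1%), against 37 of 27025 genes with a window (0.137%). Its copies are shown because they join the chaperones that differed between genotypes with others that did not. They are written in the direction of the motif, 5′ to 3′, with the fixed letters in capitals and the spacer in lower case:
Hspa5: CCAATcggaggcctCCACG
Hsp90b1, distal copy: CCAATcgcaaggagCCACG
Hsp90b1, proximal copy: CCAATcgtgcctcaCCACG
Calr: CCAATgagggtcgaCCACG
Canx: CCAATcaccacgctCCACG
Pdia6: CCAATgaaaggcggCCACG
Creld2: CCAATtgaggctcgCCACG
Dnajc3: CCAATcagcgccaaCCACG
Syvn1: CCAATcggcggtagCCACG
Derl3: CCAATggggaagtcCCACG

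The spacers differed from copy to copy while the ends are fixed by the search. Their first base in the direction of the gene lay from 44 bases before the start (Syvn1) to 212 bases before it (distal copy of Hsp90b1), and the motif pointed against the gene in Calr, Creld2, Derl3 and the proximal copy of Hsp90b1. By role, 7 of 12 chaperones with a window held an ERSE, 2 of 7 degradation genes, 0 of 4 sensors and factors and 0 of 5 genes of the Atf4 arm. The related motif ERSE-II, with the ends ATTGG and CCACG around 1 base of any kind, present in 0.0444% of all genes, was found in Dnajb11 and Herpud1. A core of the element bound by Atf4 with C/EBP partners (TGATGNAA), much shorter and present in 4.51% of all genes, was found in Trib3, Chac1, Asns and Herpud1, and the core of the Xbp1 element (TGACGTGG, 0.714% of all genes) in 0 of the 28. Herpud1 was thus the only 1 of the 28 with matches to both an ERSE type and the Atf4 core, and no 2 of the searched motifs overlapped in it. A match describes letters in these windows and not binding.

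**Figure D1:**
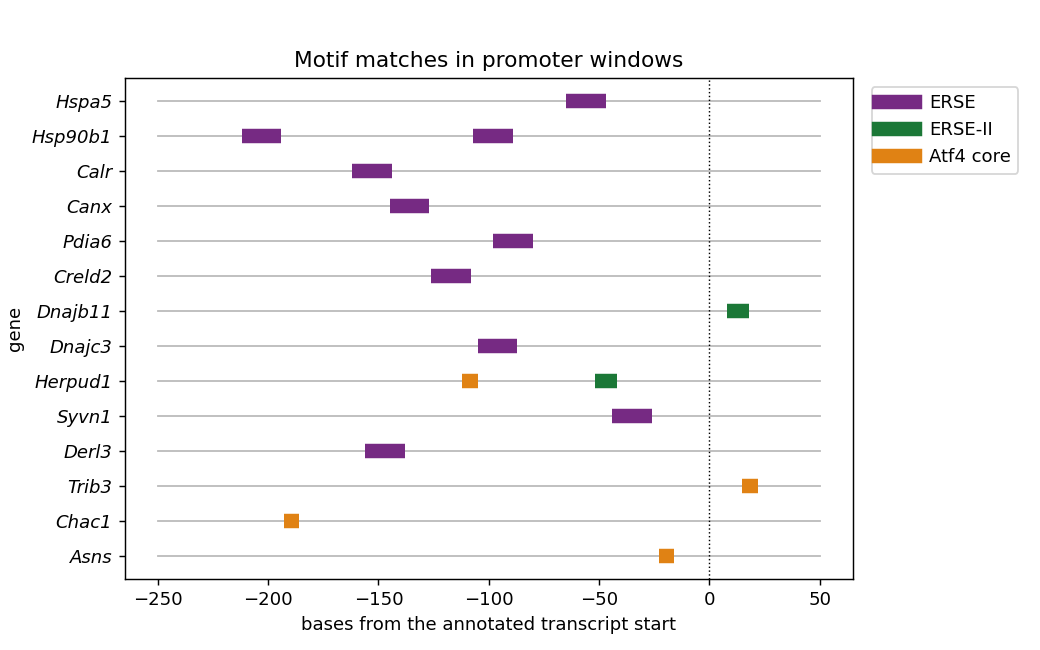
Matches to ERSE (purple), ERSE-II (green) and the Atf4 core (orange) in the promoter windows of the 14 genes with a match. The x axis gives bases from the annotated start and each grey line is 1 window; ERSE copies lie from 212 to 26 bases before the start, and those of Dnajb11 (ERSE-II) and Trib3 (Atf4 core) lie after it.

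Windows are printed for Creld2 and Canx, the chaperones with an ERSE that were called in Casp1-/- fat, and for Asns, the member that moved the other way. Capitals mark the ERSE of Creld2 (against the direction of the gene) and of Canx, and the Atf4 core of Asns. They lie at chr15:88819396-88819695 on the plus strand for Creld2, at chr11:50325624-50325923 on the minus strand for Canx and at chr6:7693160-7693459 on the minus strand for Asns, each written 5′ to 3′ along the gene:
Creld2: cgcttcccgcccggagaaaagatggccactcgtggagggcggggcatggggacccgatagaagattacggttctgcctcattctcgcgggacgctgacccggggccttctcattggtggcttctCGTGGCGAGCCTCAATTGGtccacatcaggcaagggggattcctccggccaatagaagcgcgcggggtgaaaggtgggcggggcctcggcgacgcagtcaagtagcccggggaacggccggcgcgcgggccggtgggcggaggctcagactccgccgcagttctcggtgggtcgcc
Canx: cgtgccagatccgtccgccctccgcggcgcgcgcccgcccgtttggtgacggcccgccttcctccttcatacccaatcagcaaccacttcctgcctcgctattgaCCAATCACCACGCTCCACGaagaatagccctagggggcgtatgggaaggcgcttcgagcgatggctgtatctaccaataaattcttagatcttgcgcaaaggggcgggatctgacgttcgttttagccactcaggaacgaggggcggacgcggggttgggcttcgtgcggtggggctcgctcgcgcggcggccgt
Asns: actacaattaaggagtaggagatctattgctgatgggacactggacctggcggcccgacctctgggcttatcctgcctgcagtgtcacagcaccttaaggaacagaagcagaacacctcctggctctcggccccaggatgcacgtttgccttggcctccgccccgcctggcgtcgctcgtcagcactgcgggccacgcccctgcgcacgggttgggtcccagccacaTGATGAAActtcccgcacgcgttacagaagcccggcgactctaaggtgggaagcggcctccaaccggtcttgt

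Loss of caspase-1 was accompanied by lower signals of some, not all, ER chaperones and by a higher signal of Asns. Creld2, Manf, Dnajb9 and Canx fell by between 1.27-fold and 1.59-fold, and Asns, the asparagine synthetase, rose 1.66-fold. By limma with Benjamini-Hochberg adjustment over all 17097 genes, 4 of the 32 were lower (3.86% of all genes were) and 1 was higher (4.31% of all genes were), so 5 passed in either direction, against 8.17% of all genes. Without the dimmest 40% of genes, 4 of 31 members were again lower and 1 higher, but 16.7% of the 10258 genes left passed in either direction. All 4 lower genes are among the 14 chaperones, which had a median difference of -0.25 from WT, against 0.04 over all genes tested. With the spike-in set as a block these medians were -0.077 and 0.03. Of the degradation genes 0 of 8 passed and of the sensors and factors 0 of 5. An unadjusted limma p under 0.05 was found for 11 of the 32, against 27.6% of all genes. These were 7 of 14 chaperones, 1 of 8 degradation genes (Edem1), 1 of 5 sensors and factors (Xbp1) and 2 of 5 genes of the Atf4 arm. The median over all 32 was -0.06, and 21 lay below WT. The arrays of Casp1-/- and WT did not overlap for 13 of the 32 (40.6%), as was the case for 24.7% of all genes, with 9 lower (9.6% of all genes) and 4 higher (15.1% of all genes).

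**Figure D2:**
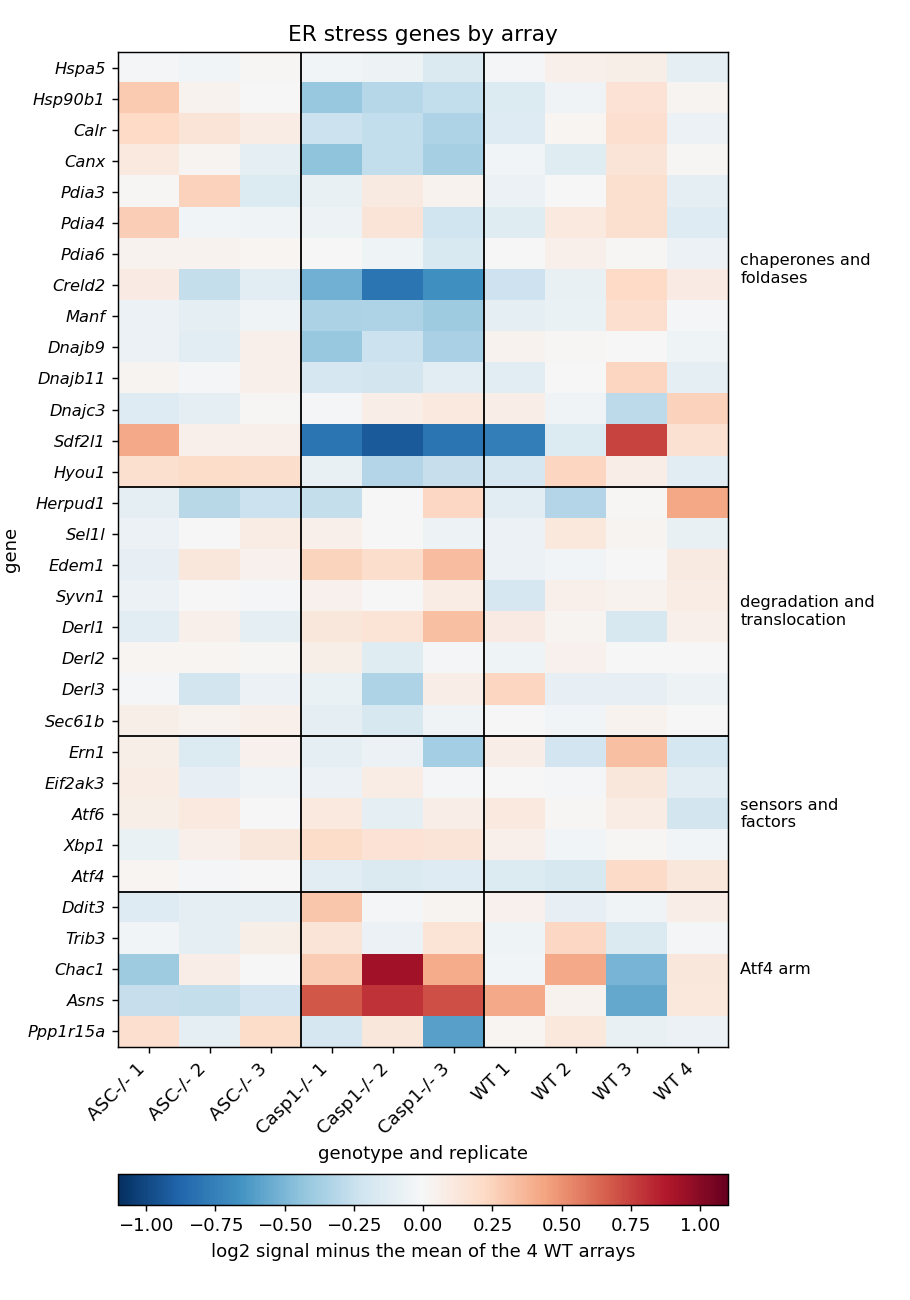
Log2 signal of each gene minus the mean of the 4 WT arrays (colour, blue lower and red higher), with genes in rows by role and the 10 arrays in columns, ASC-/- then Casp1-/- then WT. Blue cells gather in the chaperones on the 3 Casp1-/- arrays, and WT replicate 1 is blue for Sdf2l1 (7.67) as those arrays are.

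Creld2, a cysteine-rich ER protein that aids disulfide exchange, had signals of 8.23, 7.96 and 8.09 in Casp1-/- fat, against 8.53, 8.68, 8.98 and 8.85 in WT fat. Every Casp1-/- array thus lay below every WT array, a fold of 1.59 (log2 difference -0.67 ± 0.13, SE, adjusted p = 0.0211). Manf, an ER-resident factor that is secreted under stress and protects cells, stood at 9.93, 9.94 and 9.88 in Casp1-/-, against 10.18, 10.21, 10.46 and 10.26 in WT (difference -0.36 ± 0.080, SE, adjusted p = 0.0301). The Casp1-/- arrays of Manf lay close together and clear of WT.

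Dnajb9 (ERdj4), a co-chaperone of the Hspa5 chaperone that binds aggregation-prone proteins, gave 9.69, 9.87 and 9.75 in Casp1-/- and 10.15, 10.12, 10.11 and 10.06 in WT. It fell 1.27-fold (-0.34 ± 0.075, SE, adjusted p = 0.0292), and WT arrays were close together (SD 0.034, n = 4). Canx (calnexin), the membrane chaperone that retains newly made glycoproteins, gave 10.66, 10.82 and 10.74 in Casp1-/- and 11.07, 10.97, 11.24 and 11.11 in WT (-0.36 ± 0.089, SE, adjusted p = 0.0411). The dimmer probe set of Canx differed by -0.49, the same way.

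The other lectin chaperone and the large chaperones lay lower too without passing. Calr (calreticulin), the soluble partner of calnexin, averaged 11.37 ± 0.052 in Casp1-/- and 11.66 ± 0.14 in WT (adjusted p = 0.0798), and Hsp90b1 (Grp94) averaged 11.00 ± 0.077 in Casp1-/- and 11.33 ± 0.13 in WT (adjusted p = 0.0714; SD, n = 3 and 4). Sdf2l1, an ER protein that keeps unfolded clients soluble, had the widest spread of all 32 genes among WT arrays. It read 7.63, 7.51 and 7.63 in Casp1-/-, against 7.67, 8.28, 9.18 and 8.60 in WT, so WT replicate 1 lay beside the Casp1-/- arrays while the rest were far above (-0.84 ± 0.29, SE, adjusted p = 0.0986). Hyou1 (Grp170), which reloads Hspa5 with nucleotide, averaged 8.37 ± 0.13 in Casp1-/- and 8.59 ± 0.19 in WT (adjusted p = 0.233), and Dnajb11, another Hspa5 co-chaperone, 9.43 ± 0.038 and 9.60 ± 0.17 (adjusted p = 0.274).

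Hspa5 (BiP), the main ER chaperone and the standard readout of this response, showed no such difference on its brighter probe set. It gave 11.25, 11.23 and 11.12 in Casp1-/- and 11.26, 11.34, 11.34 and 11.18 in WT, with overlapping arrays and a 95% interval of the difference from -0.24 to 0.081. Its dimmer probe set, also far above background, read 10.40, 10.68 and 10.40 in Casp1-/- and 10.84, 10.90, 11.04 and 10.84 in WT. It differed by -0.41 with no overlap, so the 2 probe sets disagree in size and in overlap. The disulfide isomerases Pdia6 (-0.073), Pdia4 (-0.045) and Pdia3 (0.020, near background) and Dnajc3 (p58IPK, 0.054), which restrains the PERK kinase, overlapped between groups on their brightest probe sets. The next brightest of Dnajc3 lay higher without overlap (9.42 to 9.55 in Casp1-/-, 9.13 to 9.36 in WT). So did a dimmer one (7.91 to 8.21 and 6.91 to 7.65), while its remaining probe sets overlapped. Of the 4 chaperones called in Casp1-/- against WT, 2 carry an ERSE. The 7 chaperones with it ranged from -0.67 (Creld2) to 0.054 (Dnajc3), with a median of -0.28, and the 7 without it or without a window ranged from -0.84 (Sdf2l1) to 0.020 (Pdia3), with a median of -0.22. In ASC-/- against Casp1-/-, the 4 called chaperones all carry one. The difference there ranged from -0.13 to 0.57 in the 7 with it (median 0.37) and from 0.021 to 1.02 in the 7 others (median 0.29), of which 0 were called. Among those others, Dnajb9, Hyou1, Manf and Sdf2l1 lay higher without overlap and narrowly missed the threshold (limma, adjusted p from 0.0546 to 0.0748). Manf and Hyou1 had no window, so whether they carry an ERSE is not known here, and Dnajb11 holds an ERSE-II. These splits have no test.

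Genes of ER-associated degradation did not follow the chaperones downward. Edem1, a lectin that picks misfolded glycoproteins for removal, read 10.16, 10.12 and 10.26 in Casp1-/- against 9.86, 9.89, 9.92 and 10.02 in WT. All Casp1-/- arrays were above WT (0.26 ± 0.079, SE), but the adjusted p was 0.0739. Derl1, part of the channel through which such proteins leave, differed by 0.20 with no overlap (adjusted p = 0.195), and its other probe sets by 0.31 and 0.39. Sec61b, a subunit of the entry channel, lay lower with no overlap (-0.11, adjusted p = 0.302). Syvn1 (the ubiquitin ligase Hrd1, 0.041), its partner Sel1l (-0.0031), Derl2 (-0.027), Derl3 (-0.11, at background) and the ligase scaffold Herpud1 (-0.012) overlapped. For Sel1l the other probe sets differed by between -0.088 and 0.66. Its next brightest lay higher without overlap (9.02 to 9.36 in Casp1-/-, 8.48 to 8.93 in WT). So did a dimmer one (7.16 to 7.57 in Casp1-/-, 6.44 to 6.92 in WT), while the remaining ones overlapped. The second probe set of Herpud1 differed by 0.17 and overlapped.

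Among the sensors, Ern1 (-0.18), Eif2ak3 (-0.00030) and Atf6 (0.027) overlapped between Casp1-/- and WT. Xbp1, the factor whose mRNA Ern1 splices, read 11.80, 11.76 and 11.75 in Casp1-/- and 11.66, 11.57, 11.61 and 11.57 in WT. The Casp1-/- arrays lay above all WT arrays (0.17 ± 0.071, SE, adjusted p = 0.162), but its other probe sets differed by between -0.13 and -0.014. The splicing of Xbp1 was not analysed here. Atf4, which is controlled mainly through its translation, averaged 10.21 ± 0.015 in Casp1-/- and 10.35 ± 0.19 in WT (adjusted p = 0.404).

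In the Atf4 arm, Asns read 9.40, 9.51 and 9.43 in Casp1-/- fat, against 9.13, 8.76, 8.15 and 8.83 in WT fat. The lowest Casp1-/- array was above the highest WT array (0.73 ± 0.19, SE, adjusted p = 0.0459). Chac1, which degrades glutathione, read 6.90, 7.54 and 7.02 in Casp1-/- and 6.58, 7.03, 6.11 and 6.74 in WT. These arrays overlapped through WT replicate 2 (0.54 ± 0.23, SE, adjusted p = 0.167). Ddit3 (CHOP), the factor tied to stress-induced cell death, averaged 8.90 ± 0.17 in Casp1-/- and 8.80 ± 0.075 in WT (adjusted p = 0.501). In the same arm, Trib3 (0.078, near background), an inhibitor of Akt and Atf4, and Ppp1r15a (Gadd34, -0.22), which lifts the translation block, did not pass either.

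None of these 5 calls held in every setting. With the spike-in set as a block, all were lost and the differences were -0.44 for Creld2, -0.26 for Manf, -0.38 for Dnajb9, -0.33 for Canx and 0.32 for Asns (lowest adjusted p over the 32 genes = 0.225; 0.702% of all genes passed), while Sdf2l1 dropped to -0.082, Hsp90b1 to -0.18 and Calr to -0.14. All 5 were also lost without any 1 of the Casp1-/- arrays and without WT replicate 4, Asns in addition without WT replicate 2 or any 1 of the ASC-/- arrays, Canx without WT replicate 3 or any 1 of the ASC-/- arrays and Manf without ASC-/- replicate 2, with differences over all single arrays left out of -0.75 to -0.60 for Creld2, -0.39 to -0.30 for Manf, -0.39 to -0.30 for Dnajb9, -0.40 to -0.31 for Canx and 0.54 to 0.87 for Asns. Without WT replicate 1, 7 chaperones were lower, Hsp90b1, Calr and Sdf2l1 being added, while the share of all genes past the threshold in either direction was 17.7%, against 8.17% with all arrays. Over the single arrays left out, the adjusted p of Hsp90b1 ran from 0.0345 to 0.198, that of Calr from 0.0358 to 0.202 and that of Sdf2l1 from 0.0126 to 0.227.

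**Figure D3:**
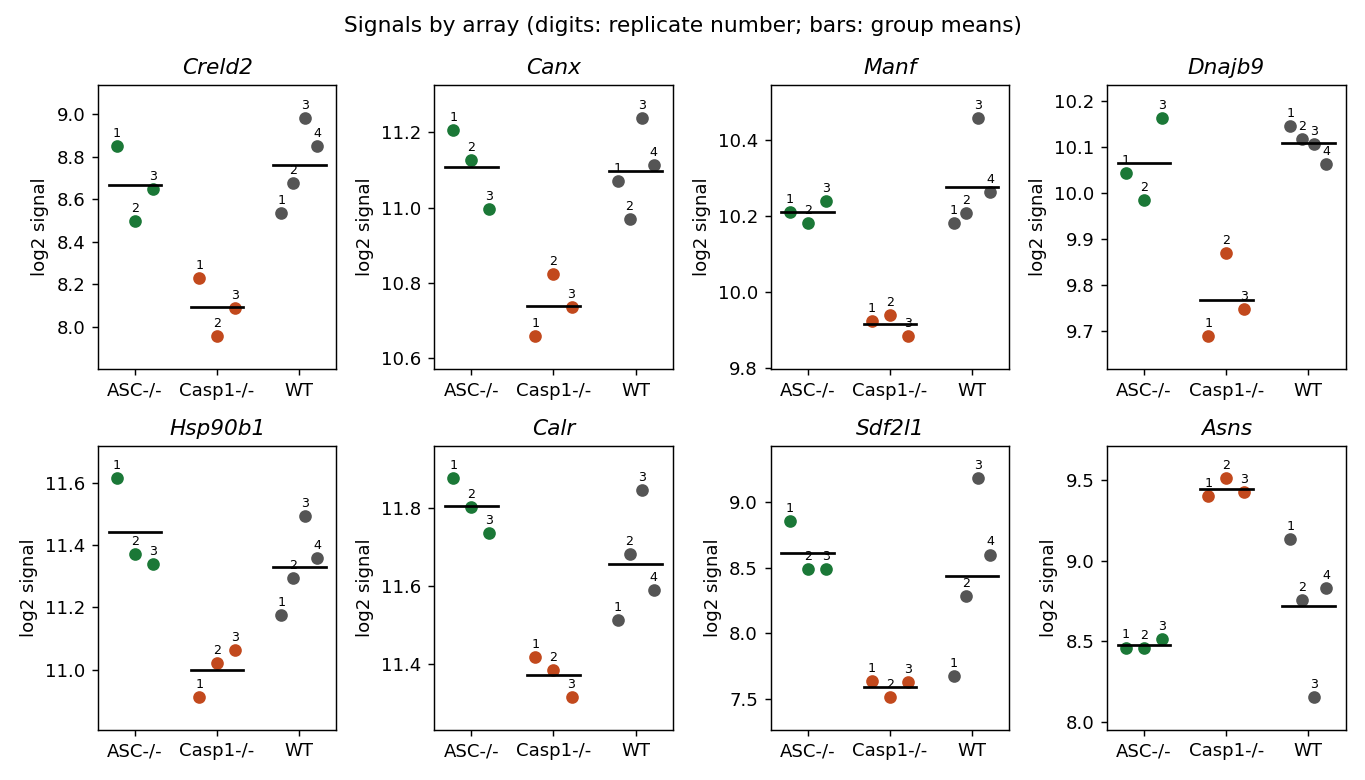
Log2 signals of 8 of the genes on each array, with ASC-/- left, Casp1-/- in the middle and WT right. Points are arrays with their replicate numbers and bars are group means; Creld2, Manf, Dnajb9 and Canx are lowest on the Casp1-/- arrays, Asns is highest there, and Sdf2l1 on WT replicate 1 (7.67) lies beside the Casp1-/- arrays.

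Cell type markers moved with these differences. The mean of 14 macrophage markers was 8.96, 8.65 and 8.95 in Casp1-/-, against 9.57, 9.99, 10.98 and 10.52 in WT. Of these 14, 9 were lower past the threshold (3.86% of all genes were) and 13 lay lower with no overlap (9.6% of all genes). The dimmest, Itgam, averaged 5.04 in Casp1-/- and 6.92 in WT, and the other 13 exceeded 5.005 on all 10 arrays. The plasma and B cell markers, from another secretory cell rich in these chaperones, had means of 4.70 to 5.31 in Casp1-/- and 5.17 to 5.41 in WT. Of these 8, 0 passed the threshold, 2 lay lower without overlap (9.6% of all genes) and 0 higher without overlap. On all 10 arrays 3 of them were below 5.005, and only Jchain was above it on all. Jchain, 1 of the 2 without overlap, read 7.88, 9.35 and 8.50 in Casp1-/- against 9.88, 9.47, 9.74 and 9.54 in WT. Fibroblast and progenitor markers, also of secretory cells, had means of 8.12 to 8.45 in Casp1-/- and 8.34 to 8.97 in WT. Of these 10, 7 were below WT (median -0.40), 5 had an unadjusted p under 0.05 (27.6% of all genes) and 1, the collagen gene Col1a1, was lower past the threshold. On all arrays 7 of the 10 exceeded 5.005, the exceptions being Pdgfra, Col1a2 and Pi16. Of 10 mesothelium markers 9 were above WT (median 0.75), with 2 at an unadjusted p under 0.05 and 0 past the threshold, and 5 exceeded 5.005 on all arrays. The mean of the 14 chaperones stood at 9.38, 9.40 and 9.36 in Casp1-/- and at 9.51, 9.64, 9.79 and 9.63 in WT, so that WT replicate 1 was lowest and WT replicate 3 highest in WT for both means. The mean of 9 adipocyte markers was 11.52, 11.52 and 11.61 in Casp1-/- and 11.31, 11.34, 10.34 and 11.03 in WT. Of these 9, 7 were above WT (median 0.62), and 6 lay higher with no overlap (15.1% of all genes). At an unadjusted p under 0.05 there were 5, and 1 was higher past the threshold. The dimmest, Pnpla2, exceeded 5.005 on only 2 of the 10 arrays, and the other 8 did so on all. Within WT, Asns was lowest on replicate 3, as the adipocyte mean was. In bulk tissue, fewer cells of a type and less RNA per cell cannot be told apart, and the part of cell composition in these differences was not tested. Actin read at its 3' end minus its 5' end, a measure of RNA shortening, was 0.82 to 0.98 in Casp1-/- and 0.46 to 1.05 in WT. With it as a covariate Creld2 (-0.60), Manf (-0.32) and Dnajb9 (-0.35) passed, whereas Canx (-0.31) and Asns (0.61) did not.

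**Figure D4:**
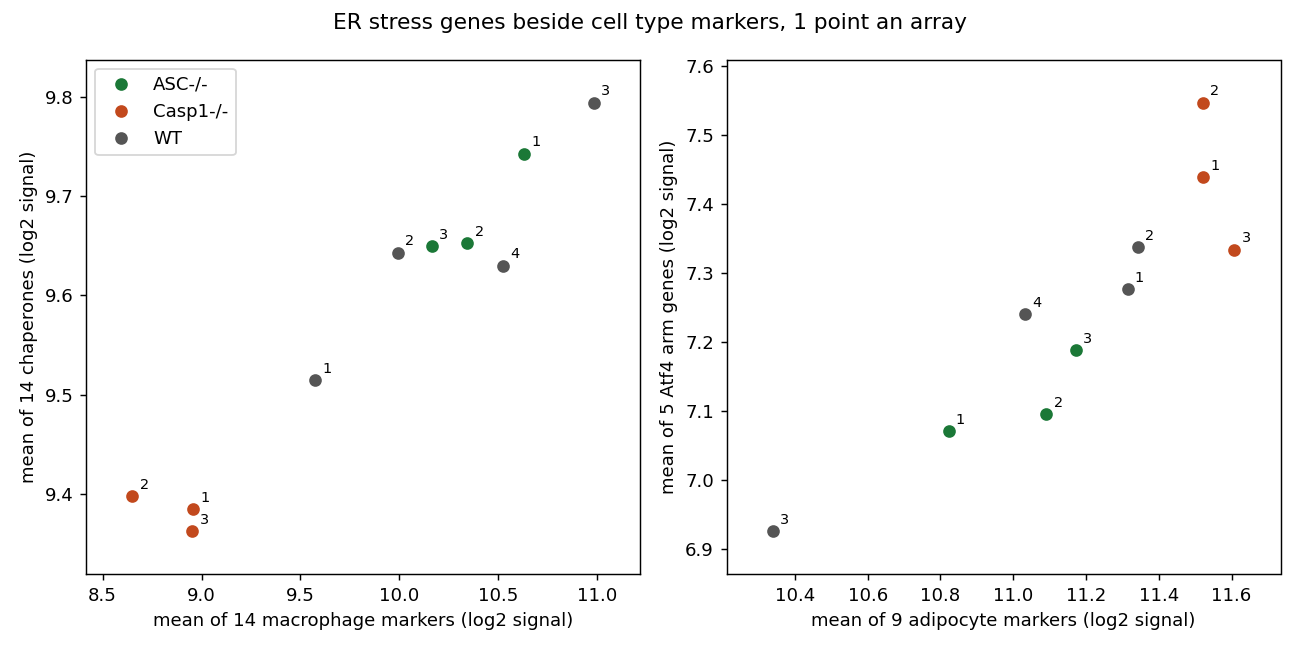
Left, mean log2 signal of the 14 chaperones (y) beside that of 14 macrophage markers (x); right, mean of the 5 genes of the Atf4 arm (y) beside that of 9 adipocyte markers (x). Each point is 1 array (ASC-/- green, Casp1-/- orange, WT grey, with replicate numbers); the Casp1-/- arrays have the lowest chaperone means (9.36 to 9.40) and the lowest macrophage means (8.65 to 8.96).

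Loss of ASC left this set close to WT. Of the 32 genes, 0 were higher and 0 lower by limma (0.0175% of all genes were higher, 0.0175% lower and 0.0351% either), and 0 had an unadjusted p under 0.05, against 2% of all genes. The differences ranged from -0.24 (Asns) to 0.19 (Hyou1), with a median of 0.0027, against 0.0050 over all genes tested. The arrays did not overlap for 2 of 32 genes (6.25%, with 3.19% of all genes), 1 higher (1.33% of all genes) and 1 lower (1.86% of all genes). These were Sec61b (10.81, 10.78 and 10.80 in ASC-/- against 10.74, 10.71, 10.78 and 10.74 in WT) and Ddit3 (8.66, 8.70 and 8.70 in ASC-/- against 8.85, 8.71, 8.77 and 8.88 in WT).

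The intervals show how large a change could have been missed in ASC-/- fat. For Creld2 (8.85, 8.50 and 8.65 in ASC-/-) the 95% interval of the difference from WT ran from -0.39 to 0.20, which leaves out the -0.67 measured in Casp1-/- fat, and for Canx it ran from -0.19 to 0.21 and for Dnajb9 from -0.21 to 0.12. For Hspa5 it ran from -0.17 to 0.15. For Sdf2l1 it was far wider, from -0.47 to 0.82, and its WT arrays spread over more than 1 log2 unit. Asns read 8.46, 8.46 and 8.51 in ASC-/-, inside the WT range, with an interval from -0.66 to 0.18. The macrophage marker mean was 10.63, 10.34 and 10.16 in ASC-/-, also inside the WT range. Of 8 plasma and B cell markers, 7 lay below WT and 1 above, with 0 past the threshold and 2 lower without overlap (1.86% of all genes). These 2 were Tnfrsf17, below 5.005 on all arrays, and Jchain (8.60, 6.30 and 8.86 in ASC-/- against 9.47 to 9.88 in WT).

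Set directly against each other, ASC-/- and Casp1-/- fat differed in the same roles. In ASC-/-, 4 of the 32 genes were higher (3.85% of all genes were) and 1 was lower (3.54% of all genes were), so 5 passed in either direction, against 7.39% of all genes. The higher ones were the chaperones Calr, Creld2, Hsp90b1 and Canx, and the lower one was Asns. Without the dimmest 40% of genes, 6 of 31 members were higher and 1 lower, while 15.6% of the 10258 genes left passed in either direction. The 14 chaperones had a median difference of 0.30, against -0.04 over all genes tested, and with the spike-in block 0.14 against -0.03. Arrays did not overlap for 18 of 32 genes (56.2%, with 40.4% of all genes), 12 higher (17.3% of all genes) and 6 lower (23.1% of all genes). This comparison shares its arrays with both comparisons against WT and does not stand apart from them.

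Calr read 11.88, 11.80 and 11.74 in ASC-/- and 11.42, 11.38 and 11.32 in Casp1-/- fat. It was 1.35-fold higher in ASC-/- (0.43 ± 0.096, SE, adjusted p = 0.0306), with clear separation of the arrays. Hsp90b1 read 11.61, 11.37 and 11.34 in ASC-/- and 10.91, 11.02 and 11.06 in Casp1-/- (0.44 ± 0.11, SE, adjusted p = 0.04). Creld2 was higher by 0.57 ± 0.14 (adjusted p = 0.039) and Canx by 0.37 ± 0.095 (SE, adjusted p = 0.0472).

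Other chaperones lay higher in ASC-/- with no overlap and missed the threshold. Sdf2l1 read 8.85, 8.49 and 8.49 in ASC-/- against 7.63, 7.51 and 7.63 in Casp1-/- (1.02 ± 0.31, SE, adjusted p = 0.0748), the largest chaperone difference in size. Hyou1 averaged 8.78 ± 0.014 in ASC-/- and 8.37 ± 0.13 in Casp1-/- (SD, n = 3 each, adjusted p = 0.0649), Dnajb9 10.06 ± 0.091 and 9.77 ± 0.092 (adjusted p = 0.0546) and Manf 10.21 ± 0.030 and 9.92 ± 0.029 (adjusted p = 0.0682). With the spike-in set as a block, the difference of Sdf2l1 dropped to 0.0053, and those of Hyou1, Dnajb9 and Manf were 0.17, 0.35 and 0.17. Asns was lower by 0.97 on the log2 scale in ASC-/- (-0.97 ± 0.20, SE, adjusted p = 0.0254), a fold of 1.96. Chac1 (-0.64), Edem1 (-0.23), Derl1 (-0.26), Ddit3 (-0.22) and Xbp1 (-0.13) were lower without overlap and did not pass, with adjusted p = 0.122 for Edem1 and 0.298 for Xbp1. The other probe sets of Xbp1 went the other way, by between 0.13 and 0.20. The second of Edem1 differed by -0.0045, and the others of Derl1 by -0.31 and -0.49.

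Every ASC-/- array lies in the low and every Casp1-/- array in the high spike-in set, so this comparison has no within-set value. With the set as a block, the WT arrays alone carry the adjustment, and Calr (0.24), Hsp90b1 (0.24), Creld2 (0.27), Canx (0.33) and Asns (-0.42) all lost the threshold, as they did with the actin covariate and without any 1 of the ASC-/- or Casp1-/- arrays. Canx, Creld2 and Hsp90b1 were lost without WT replicate 2 or 4 as well, with the same differences (0.37, 0.57 and 0.44), as no WT array enters them. The macrophage marker means were 10.16 to 10.63 in ASC-/- and 8.65 to 8.96 in Casp1-/-. Of these 14 markers, 9 were higher in ASC-/- past the threshold (3.85% of all genes were) and all 14 lay higher without overlap (17.3% of all genes). Among fibroblast and progenitor markers 2 of 10, the collagen genes Col1a1 and Col3a1, were higher. Of 8 plasma and B cell markers 1, Tnfrsf17, was lower (3.54% of all genes were), with all arrays below 5.005. Of 10 mesothelium markers, 10 lay below Casp1-/- and 0 passed. The part of these differences in the chaperone results was not tested.

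**Figure D5:**
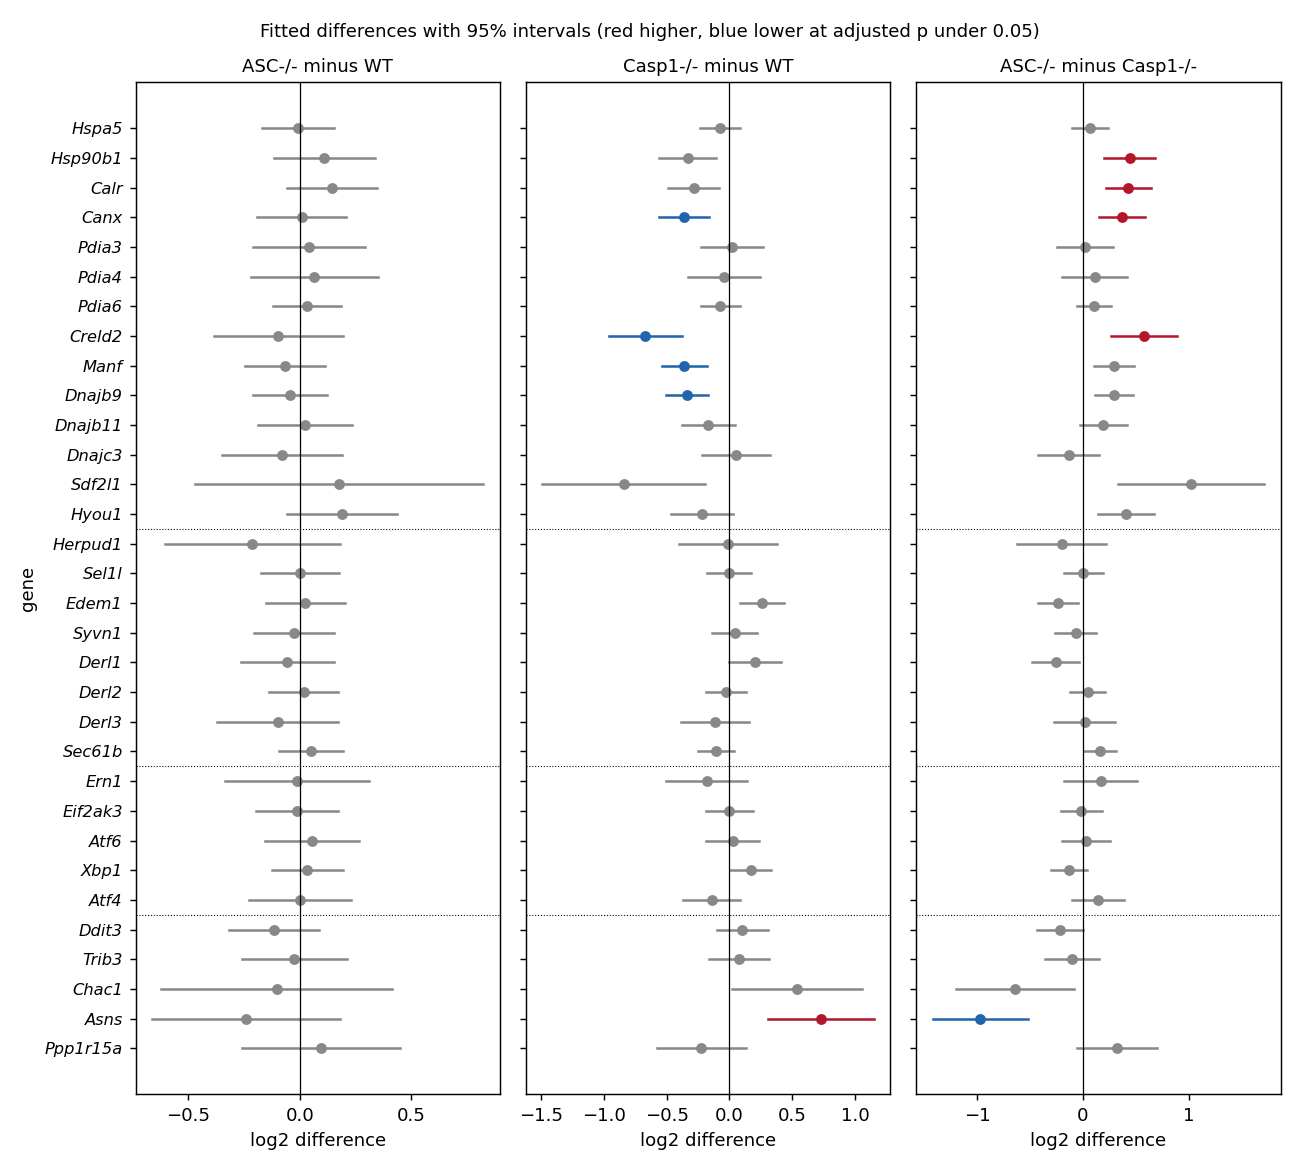
Fitted log2 differences of the 32 genes (points) with 95% intervals (lines) for ASC-/- minus WT, Casp1-/- minus WT and ASC-/- minus Casp1-/-, red where higher and blue where lower at an adjusted p under 0.05. In the left panel 0 genes are coloured, in the middle 4 chaperones are blue and Asns is red, and on the right 4 chaperones are red and Asns is blue; the x axes differ in range.

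Genes of the same pathway outside the 32 are read against all genes, of which 8.17% passed in Casp1-/- against WT, 27.6% had an unadjusted p under 0.05 and 24.7% did not overlap. Of 21 other folding genes, 0 passed, 4 had an unadjusted p under 0.05 and 23.8% did not overlap (median difference -0.0064). Of 21 other degradation and translocation genes these were 0, 6 and 28.6% (median 0.020), and of 13 other sensors and factors 1, 5 and 23.1% (median 0.062). Of 25 other genes of the Atf4 arm and the wider stress response, 3 passed, 2 higher and 1 lower, 11 had an unadjusted p under 0.05 and 48% did not overlap. Their median difference was 0.18 and their median size without sign 0.39, against 0.16 over all genes. Wfs1 (wolframin), an ER membrane protein that dampens Atf6, read 8.06, 7.79 and 8.12 in Casp1-/- against 8.82, 9.37, 10.20 and 9.78 in WT. It was lower by 1.55 on the log2 scale (-1.55, adjusted p = 0.0211, and -0.83 with the spike-in block, not past it).

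Within the stress response list, Atf3 and Stc2 moved in opposite directions. Stc2 (stanniocalcin-2), a secreted stress-induced glycoprotein, read 7.36, 7.38 and 7.25 in Casp1-/- against 5.43, 5.64, 4.40 and 4.91 in WT, a rise of 2.23 (adjusted p = 0.00967), with WT near the background maximum. Atf3, a stress-induced repressor that macrophages also express, read 7.52, 6.54 and 8.00 in Casp1-/- against 9.17, 9.71, 11.28 and 10.45 in WT (-2.80, adjusted p = 0.0172). Nupr1, a stress-induced nuclear protein, was higher by 0.67 (adjusted p = 0.035). With the block these were 1.90, -1.81 and 0.54, none past the threshold. Without single arrays Stc2 passed in 9 of 10 cases, Atf3 in 7, Wfs1 in 6 and Nupr1 in 4.

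Against ASC-/- fat the same lists gave Ero1b, an ER oxidase that feeds disulfide formation (0.54 higher in ASC-/-, adjusted p = 0.041), Cebpb, a partner of Atf4 (0.53 higher, adjusted p = 0.0173), Wfs1 (1.82 higher), Atf3 (3.11 higher), Stc2 (-2.15) and Nupr1 (-0.67). All 6 lost the threshold with the spike-in block, at 0.28 for Ero1b, 0.48 for Cebpb, 0.85 for Wfs1, 1.80 for Atf3, -1.71 for Stc2 and -0.51 for Nupr1 (lowest adjusted p = 0.368). Without single arrays Ero1b passed in 2 of 10 cases, Nupr1 in 4, Wfs1 in 5, Cebpb in 6, Atf3 in 7 and Stc2 in 8. In ASC-/- against WT 0 genes of these lists passed, with 2 at an unadjusted p under 0.05 in the stress response list and 0 in the other 3 (2% of all genes). Of 11 cytosolic heat shock genes, which answer to unfolded proteins outside the ER, 2 passed in Casp1-/- against WT (18.2%, with 8.17% of all genes), with a list median of -0.066. These were the small heat shock genes Hspb8 (10.46, 10.80 and 10.79 in Casp1-/- against 10.06, 9.77, 8.99 and 9.67 in WT, adjusted p = 0.0258) and Hspb1 (0.75 higher, adjusted p = 0.0474). With the block they stood at 0.63 and 0.71 and did not pass, and without single arrays Hspb8 passed in 6 of 10 cases and Hspb1 in 2. Hspb8 was lower in ASC-/- than in Casp1-/- (-1.13, adjusted p = 0.0271, and -0.55 with the block, not past it).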

How the data were processed

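Log2 signals of 45141 probe sets were deposited by the authors, who used RMA (version not stated) according to the submitters' processing notes. This method corrects background, quantile-normalises the arrays and summarises probe sets, so it hides a change in total RNA and compresses changes near background. The arrays were checked for copies (correlations 0.964 to 0.995). The number of arrays limits the precision.

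Of the probe sets, 104 are controls, 28898 were paired with 1 symbol, 551 with several and 15588 with none. The probe set with the highest mean stood for its gene, with no filter on dim genes. Differences came from limma 3.58.1 (R 4.3.3) on all 10 arrays, with a mean for each genotype and default empirical Bayes (7 residual and 2.43 prior degrees of freedom). Tests were two-sided, with Benjamini-Hochberg adjustment over 17097 genes and a threshold of 0.05. The fit and contrasts were tested on simulated data.

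The members, their roles, the lists and the tests were chosen with earlier results of these data known. All members are described by role, and other list genes are named where they passed, at most 4 a list by smallest p. The spike-in set was split at the largest gap of the mean of 24 controls. Replicate numbers were checked for pairing. Sequences are RefSeq's (GRCm38.p6), found for 28 of 32 members. The sources used here name no genome build for the probe sets.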

Additional observations from a re-analysis of the deposited data

Results flagged for a closer look

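Among the 4 WT arrays, a single array stood far from the rest for 2 of the 32 genes, by Dixon's 95% limit on the gap to the nearest array divided by the whole range. Chance alone gives such a gap in about 1 of every 20 genes tested, and 32 were tested here. The groups of 3 were not tested. Syvn1, the ubiquitin ligase of ER-associated degradation, read 8.87 on WT replicate 1 and 9.09 to 9.13 on the other WT arrays, a gap of 0.833 of the range. Derl3 read 4.34 on WT replicate 1 and 4.01 to 4.05 on the others (0.886 of the range), below the highest background control. WT replicate 1 is the only WT array in the high spike-in set.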

How the results depend on the processing

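In ASC-/- against WT, 0 members were higher and 0 lower under all 20 alternatives. In Casp1-/- against WT, 4 were lower and 1 higher. Only 1 was lower and 0 higher when the 2 groups were fitted alone (9 at an unadjusted p under 0.05, and 2.74% of all genes past the threshold), 0 and 0 with the replicate block (9, and 0.0526% of all genes) and 0 and 0 with the spike-in set as a block (5, and 0.702%), against 8.17% of all genes with no block. The count higher was 0 after quantile normalization and with the actin covariate. Leaving out single arrays gave 0 to 7 lower and 0 to 1 higher (0.374% to 17.7% of all genes). In ASC-/- against Casp1-/-, 4 were higher and 1 lower. The counts were 0 and 0 with the actin covariate (10 at an unadjusted p under 0.05, and 1.35% of all genes past the threshold), the replicate block (11, and 0.111%) and the spike-in block (2, and 0.368%), against 7.39% of all genes otherwise. Centring arrays on their medians gave 1 higher, fitting the 2 groups alone gave 7 higher (19% of all genes called), and means over probe sets gave 2 lower. Leaving out single arrays gave 0 to 7 higher (7 without WT replicate 3, with 15.3% of all genes, and 1 without WT replicate 4, with 5.08%) and 0 to 1 lower. The cause of these shifts was not tested. The 10 calls of single members gave 200 values under the alternatives, of which 0 changed sign and 102 missed the threshold. Deviations from the group means correlated by -0.26 to 0.185 between arrays with the same replicate number, and 2 of 10 arrays correlated best with their own number. With means of only 3 or 4 arrays, this check cannot exclude a pairing by number, and the labels name none.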

Other observations

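For several members the dimmer probe sets gave other sizes than the one used. In Casp1-/- minus WT, the second probe set of Calr differed by -0.49 against -0.28 for the one used, and that of Hsp90b1 by -0.39 against -0.33. The 4 other probe sets of Dnajc3, the PERK inhibitor, differed by 0.23, 0.23, 0.61 and 0.23, all above the 0.054 of the one used, and the second of Edem1 by 0.064 against 0.26. The second of Pdia6, at background, differed by -0.33. These values carry no test.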
